A study of Homo sapiens with 32 samples.

Results

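The comparison described here sets the endometrial cancer cell line SNGM against the endometrial cancer cell line Ishikawa-S33Y, each kept on vehicle. It uses 4 of the 32 RNA-seq libraries of the study, 2 of SNGM and 2 of Ishikawa-S33Y, found by their labelled line and treatment. The pair of lines was picked with earlier results of these data known, because their mitotic genes responded to SM08502 in opposite directions, so that contrast is described here without a test. The study treated 4 endometrial cancer lines for 24 h with vehicle, paclitaxel, SM08502 or the combination and sequenced 2 libraries for each of the 16 groups. The question of the vehicle comparison is how much these lines differ before any drug, given that the labels call both CTNNB1-mutated and that both gave 500 ng of RNA to the library preparation.

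Cells of each line were plated in duplicate and received 0.1% DMSO for 24 h. Ishikawa-S33Y carries its variant name in the label, S33Y, which is a change of a serine in the amino-terminal part of beta-catenin. Which CTNNB1 change SNGM carries is not given in the sources used here, and neither is how the S33Y line was made or whether it is a clone. The parental Ishikawa line, labelled CTNNB1-wildtype and prepared from 350 ng of RNA, and HEC265, labelled CTNNB1-mutated and prepared from 500 ng, were also kept on vehicle in 2 libraries each and serve as points of reference. The media are described for all lines together, with a range of serum contents, so a difference of medium or of culture between the lines cannot be told apart from a difference of line.

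CTNNB1 encodes beta-catenin, which joins cadherins to the cytoskeleton and carries Wnt signals to the nucleus. Without Wnt, a destruction complex of APC, axins and the kinases GSK3 and CK1 marks beta-catenin at its amino-terminal serines and threonine for degradation. Changes at these residues, frequent in endometrioid endometrial carcinoma, let the protein escape and act with TCF and LEF factors on target genes. The endometrial epithelium is a derivative of the Mullerian duct, is shaped by factors such as PAX8, SOX17 and the HOX genes, and responds to estrogen and progesterone through the receptors ESR1 and PGR.

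Sequencing depth was 31317054 and 34127623 reads for the SNGM libraries and 20290762 and 23852360 reads for the Ishikawa-S33Y libraries. Levels are given as counts per 1000000 reads (CPM) in library 1 and library 2 of a line, in that order, and a level of 0 means no read. A count of 3 reads, taken here as the limit of detection in a library, corresponds to 0.0958 and 0.0879 CPM in SNGM and to 0.148 and 0.126 CPM in Ishikawa-S33Y. Differences are SNGM minus Ishikawa-S33Y in log2(CPM + 1), with the standard error from limma after the ± sign, so they understate the difference of genes with low counts. A gene is called at a Benjamini-Hochberg adjusted p under 0.05, and the 2 libraries of a group are duplicate platings, so the p-values measure only the spread between such libraries, which may be technical. Levels are shares of the reads of a library, and in bulk RNA fewer cells of a kind and less RNA per cell cannot be told apart. The 2 SNGM libraries differed more from each other than the 2 Ishikawa-S33Y libraries, by a root mean square of 0.215 against 0.105 log2 units over 8488 well-expressed genes. Mitochondrially encoded transcripts took 5.37% and 9.99% of the SNGM reads and 13.2% and 13.6% of the Ishikawa-S33Y reads. A score of very long against ribosomal protein transcripts was -0.49 and -0.04 in SNGM and -1.29 and -1.45 in Ishikawa-S33Y. The balance of these chosen genes thus differed between the lines, and whether transcript length had a part was not tested.

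Epithelial markers were present in both lines, which are carcinoma lines. The 7 epithelial markers EPCAM, CDH1, KRT8, KRT18, KRT19, KRT7 and MUC1 summed to 731 to 799 CPM in SNGM and 2962 to 2986 CPM in Ishikawa-S33Y, with every marker above 1 CPM. EPCAM, the epithelial adhesion molecule, stood at 153 and 129 CPM in SNGM and 232 and 225 CPM in Ishikawa-S33Y. Defining markers of T cells, B cells and monocytes (CD3E, CD3D, MS4A1, CD14 and LYZ) were under 1 CPM in all 4 libraries. So were CDH5 and KDR, which mark endothelium, and LUM and PDGFRB, which mark fibroblasts. Other members of these lists were not: PTPRC, CD68, PECAM1, COL1A1, COL1A2 and PDGFRA reached 1 CPM in at least 1 library of each line. VWF and COL3A1 were under 1 CPM in both libraries of SNGM only, and DCN in both of Ishikawa-S33Y only. The 7 fibroblast and stroma markers summed to 7.57 to 10.3 CPM in SNGM and to 1139 to 1167 CPM in Ishikawa-S33Y, but COL1A1 made up nearly all of the latter: without it the sums were 6.04 to 8.38 and 7.34 to 8.87 CPM. The 4 smooth muscle markers summed to 22.6 to 24.0 and 12.6 CPM, the 4 endothelial markers to 2.97 to 4.83 and 7.38 to 10.1 CPM.

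On vehicle the 2 lines differed across most of the transcriptome. Of 17011 genes tested, 10339 (60.8%) were called, 4775 (28.1%) higher and 5564 (32.7%) lower in SNGM. A difference of at least 2-fold was called for 4997 genes (29.4%), 2066 (12.1%) higher and 2931 (17.2%) lower. At least 4-fold differences numbered 1930, 648 higher and 1282 lower. The median difference of all genes was -0.05, and median re-centring and quantile normalization each moved it to 0.07. The share of higher genes among those called was 46.2%, against 53.2% and 53.5% on those scales, and among those called at least 2-fold it was 41.3%, against 48.1% and 52.1%. The balance of higher and lower genes over the whole transcriptome thus depends on the scaling, and the lists described next are read beside the median of -0.05 and the shares of 28.1% and 32.7%.

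**Figure D1:**
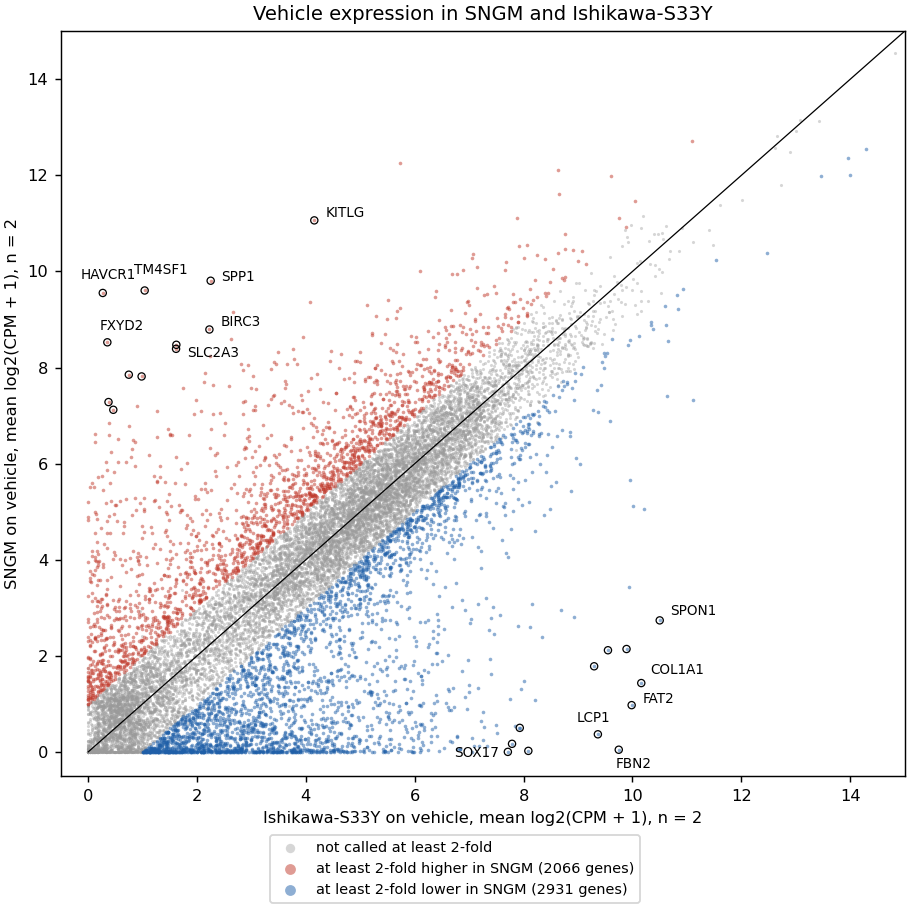
Mean log2(CPM + 1) of each tested gene in the 2 Ishikawa-S33Y vehicle libraries (x axis) and the 2 SNGM vehicle libraries (y axis), with 17011 genes as points. Red and blue points are the 2066 genes called at least 2-fold higher and the 2931 called at least 2-fold lower in SNGM, the line marks equal levels, and open circles are the 12 largest called differences in each direction.

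The 12 coding genes with the largest excess in SNGM were near or below 5 CPM in Ishikawa-S33Y, apart from KITLG. HAVCR1, a surface receptor for phosphatidylserine best known as kidney injury molecule 1 (chr5:157029413-157069407, GRCh38), was measured at 769.6 and 731 CPM in SNGM and 0.197 and 0.21 CPM in Ishikawa-S33Y, a difference of 9.29 ± 0.17 (adjusted p = 9.8e-21). TM4SF1, a tetraspan surface protein, had 876 and 689 against 0.936 and 1.17 CPM. FXYD2, the gamma subunit of the sodium pump, had 397 and 340.0 against 0.345 and 0.21 CPM. In each of these 3 genes both SNGM libraries stood far above both Ishikawa-S33Y libraries, which held few reads. SPP1, which encodes the secreted matrix protein osteopontin, reached 979 and 818 CPM against 3.15 and 4.44 CPM. KITLG, the ligand of the receptor KIT, had 2326 and 1967 CPM in SNGM and 18.4 and 15.3 CPM in Ishikawa-S33Y, while the receptor KIT itself ran the other way at 0.479 and 0.82 against 26.4 and 24.4 CPM (-4.0 ± 0.20). The other 7 were the cytokine IL32 (7.11 ± 0.18), the ADP-ribosyltransferase PARP14 (6.91 ± 0.18), the glucose transporter SLC2A3 (6.85 ± 0.16), the peptide-trimming protease ERAP2 (6.83 ± 0.21), the ephrin receptor EPHA4 (6.78 ± 0.18), TM4SF18 (6.66 ± 0.14) and the apoptosis inhibitor BIRC3 (6.57 ± 0.17). ERAP2 overlaps ERAP1, and reads of the pair may have been shared.

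The 12 coding genes with the largest deficit in SNGM began with FBN2, FAT2 and LCP1. FBN2, which encodes the microfibril protein fibrillin-2, had 0.0639 and 0 CPM in SNGM, 2 reads in all, and 858 and 859.7 CPM in Ishikawa-S33Y (-9.70 ± 0.27, adjusted p = 6.2e-18). The atypical cadherin FAT2 had 1.15 and 0.791 against 1029.8 and 995 CPM, the actin-bundling protein LCP1 0.255 and 0.322 against 661 and 656 CPM and the intermediate filament INA 0 and 0.0293 against 268 and 274 CPM. COL1A1, the alpha 1 chain of type I collagen, had 1.53 and 1.88 against 1158 and 1131 CPM, and COL12A1 3.51 and 3.31 against 947 and 949.8 CPM. LOX, the lysyl oxidase that cross-links collagen and elastin, had 2.08 and 2.84 against 605 and 651 CPM, and SPON1, which encodes the secreted protein spondin 1, 4.85 and 6.59 against 1434 and 1461 CPM. These 4 genes of matrix or secreted proteins were within a few CPM of 0 in SNGM. WLS, the carrier that Wnt ligands need to leave the cell, had 0.479 and 0.352 against 232 and 254 CPM. The remaining members were the myosin light chain MYL9 (-7.62 ± 0.17), the membrane protein EMP1 (-7.43 ± 0.17) and the transcription factor SOX17.

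Parental Ishikawa lay nearer to Ishikawa-S33Y than to SNGM for all 24 of these genes, and for 3998 (80.0%) of the 4997 genes called at least 2-fold. HEC265 was nearer to SNGM for 7 of the 12 higher genes and 10 of the 12 lower genes, and nearer to Ishikawa-S33Y for 2112 (42.3%) of the 4997. Some of the largest gaps were smaller against the parental line: FBN2 had 172 and 199 CPM in Ishikawa, COL1A1 109 and 158 CPM and COL12A1 169 and 206 CPM, all below the levels of Ishikawa-S33Y. These reference levels are a description, with no test.

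**Figure D2:**
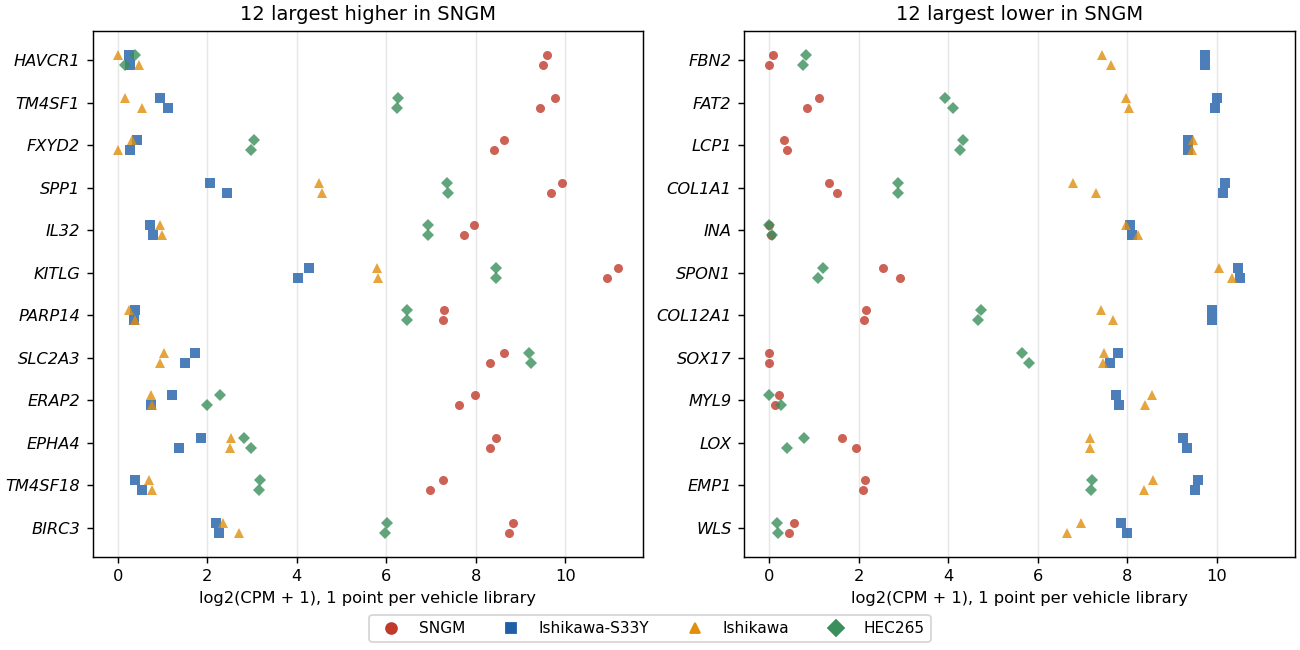
Level of the 12 largest called coding genes in each direction, as log2(CPM + 1) on the x axis, with 1 point for each of the 2 vehicle libraries of SNGM, Ishikawa-S33Y, Ishikawa and HEC265. The SNGM points lie apart from both Ishikawa lines in every gene, while HEC265 lies near SNGM for SLC2A3, IL32, INA, MYL9 and WLS, and near the Ishikawa lines for HAVCR1.

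Transcription factors of the Mullerian duct and endometrium differed in nearly every tested member of the list: 8 of 23 were higher and 12 lower in SNGM, with a median of -1.25. SOX17, a SOX factor of the uterine epithelium, had no read in either SNGM library and 221 and 197 CPM in Ishikawa-S33Y, at least 2273-fold lower with 3 reads per SNGM library as the floor (adjusted p = 1.4e-22). Ishikawa had 177 and 174 CPM and HEC265 49.0 and 55.4 CPM, so SNGM was without SOX17 reads where the 3 other lines had many. FOXA1, a pioneer factor that opens chromatin for steroid receptors, had no read in SNGM and 16.3 and 14.9 CPM in Ishikawa-S33Y. EMX2, a homeobox gene of the urogenital tract, had 0.766 and 0.879 against 101 and 99.9 CPM and the homeobox gene MSX1 4.15 and 4.28 against 346 and 301 CPM. MEIS1, a partner of HOX proteins, had 7.28 and 7.74 against 284 and 287 CPM. In the other direction PAX2, a paired-box factor of the kidney and Mullerian duct, had 26.7 and 43.6 CPM in SNGM and 0.345 and 0.503 CPM in Ishikawa-S33Y (4.63 ± 0.20). LHX1, a homeobox factor of the developing urogenital system, had 11.1 and 12.5 against 0.0986 and 0.0419 CPM. PAX8, a widely used marker of Mullerian epithelium, was at 274 and 405 CPM and 514 and 472 CPM and was not called (-0.56 ± 0.26, adjusted p = 0.066). The list thus held genes without reads in SNGM as well as genes nearly without reads in Ishikawa-S33Y, next to a shared PAX8.

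HOX genes, which set position along the body axis and along the female tract, differed in both directions. Of 35 tested, 14 were higher and 16 lower in SNGM. In the HOXD cluster 7 of 7 tested genes were lower, with summed levels of 0.479 and 0.586 CPM in SNGM against 45.7 and 44.4 CPM in Ishikawa-S33Y, 16.4 and 16.1 CPM in Ishikawa and 0 in HEC265. In the HOXA cluster 7 of 11 were higher and 3 lower, in the HOXB cluster 6 of 9 were higher and 1 lower, and in the HOXC cluster 1 of 8 was higher and 5 lower. No difference between the clusters was tested. HOXA10 and HOXA11, which pattern the uterus, were higher in SNGM, at 60.7 and 58.0 against 23.1 and 22.3 CPM and 45.9 and 47.4 against 8.53 and 7.71 CPM. HOXB2 had 30.4 and 31.4 CPM in SNGM and 0.0986 and 0.0838 CPM in Ishikawa-S33Y (4.87 ± 0.11), and HOXB3 55.3 and 74.5 against 7.20 and 4.49 CPM. These 2 neighbours were high in SNGM in both libraries. At the other end of that cluster HOXB13 had 0.128 and 0.0293 against 29.0 and 27.7 CPM (-4.77 ± 0.15), and in the HOXA cluster HOXA7 had 1.88 and 2.93 against 55.9 and 53 CPM. Antisense transcripts overlap several of these genes and strand use in counting is not stated, so the reads of a pair cannot be told apart.

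Steroid receptors and hormone-responsive genes were mostly lower: 10 of 16 tested members were lower and 2 higher, with a median of -1.39, or -1.78 with members at 0 reads set to their bound. ESR1, the estrogen receptor alpha (chr6:151656672-152129619, GRCh38), had 2.27 and 3.31 CPM in SNGM and 45.4 and 40.8 CPM in Ishikawa-S33Y, 15.5-fold lower by the mean CPM (-3.55 ± 0.16, adjusted p = 1.7e-14). The progesterone receptor PGR had no read in SNGM and 1.33 and 1.01 CPM in Ishikawa-S33Y, a low level in the latter as well. The glucocorticoid receptor NR3C1 had 20.9 and 18.6 against 61.7 and 68.0 CPM. FKBP5, a chaperone partner induced by glucocorticoids and progestins, had 0.83 and 1.17 against 22.8 and 20.7 CPM, and the secretoglobin SCGB2A1 no read against 24.9 and 27.0 CPM. PDZK1, an estrogen-induced scaffold protein, and NRIP1, a corepressor of nuclear receptors, were the 2 higher members against the direction of the rest, at 40.0 and 40.6 against 1.53 and 2.10 CPM and 571 and 555 against 118 and 123 CPM. ESR1 overlaps SYNE1, a very long gene that was higher in SNGM (4.11 ± 0.19), the direction opposite to that of ESR1.

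Genes of the epithelial junction list, which also counts regulators of the epithelial state such as ESRP1, were lower in SNGM more often than higher. Of 30 tested, 16 were lower and 7 higher, with a median of -0.47. ESRP1, an RNA-binding protein that sets epithelial splicing, had 0.128 and 0.176 CPM in SNGM and 69.6 and 68.0 CPM in Ishikawa-S33Y (-5.92 ± 0.13), while its paralog ESRP2 was not called, at 37.0 and 37.4 and 33.1 and 31.7 CPM. GRHL2, a factor that maintains the epithelial state, had 0.862 and 1.08 against 69.7 and 64.9 CPM, and the tight junction protein CLDN7 5.11 and 5.19 against 81.1 and 89.7 CPM. Claudin 1 ran the other way, with CLDN1 at 4776 and 4058 CPM in SNGM and 406 and 387 CPM in Ishikawa-S33Y (3.47 ± 0.14). The E-cadherin gene CDH1 was slightly lower, at 202 and 182 against 264 and 277 CPM (-0.49 ± 0.21, adjusted p = 0.045), a call lost without SNGM library 1 or 2 (-0.57 and -0.42) or Ishikawa-S33Y library 1 or 2 (-0.53 and -0.46), with an adjusted p from 0.0721 to 0.186 in these 4 fits and from 5.9e-06 to 0.186 over all settings. The keratins of simple epithelium KRT8 and KRT18 were lower, at 174 and 166 against 1616 and 1545 CPM and 122 and 114 against 747 and 787 CPM, and KRT19 was at 131 and 111 and 110.4 and 109 CPM and was not called. Of 15 keratins tested, 6 were lower and 1, KRT15, was higher (46.7% called, beside 60.8% of all genes).

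Mesenchymal and EMT genes did not take the opposite course: 12 of 20 tested were lower in SNGM and 4 higher, with a median of -1.39. N-cadherin, encoded by CDH2, had 0.0319 and 0.147 CPM in SNGM and 140.0 and 149 CPM in Ishikawa-S33Y (-7.06 ± 0.16). The actin-binding protein TAGLN had 1.76 and 2.46 against 174 and 162 CPM and fibronectin, FN1, 4.79 and 6.83 against 83.4 and 85.8 CPM. The EMT factors TWIST1 and TWIST2 had no read in SNGM and 10.6 and 9.64 CPM and 7.59 and 7.17 CPM in Ishikawa-S33Y. The 4 higher members were vimentin, VIM, at 1817 and 1882 against 921 and 951 CPM (0.98 ± 0.16), the repressor of epithelial genes ZEB1 at 35.1 and 40.1 against 10.8 and 11.5 CPM, the hyaluronan receptor CD44 at 3006 and 2631 against 1037 and 1065 CPM, and FOXC2, a forkhead factor, at 32.3 and 39.9 CPM against no read. HEC265, by comparison, had 0.935 and 1.16 CPM of VIM and 235 and 238 CPM of CDH2. Both junction and mesenchymal genes thus include members on each side, and neither list moved as a block.

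The matrix genes differed in both directions. Among 30 collagens, laminins and integrins tested, 12 were higher and 13 lower in SNGM, 11 and 10 of them at least 2-fold. Several collagen chains were lower besides COL1A1 and COL12A1: COL5A1 had 0.192 and 0.147 against 96.3 and 103 CPM, COL6A1 27.4 and 38.4 against 1203 and 1182 CPM and COL6A2 1.12 and 1.90 against 249 and 245 CPM. Of the basement membrane genes, the laminin chains LAMC1 and LAMB1 were higher (1.76 ± 0.27 and 1.51 ± 0.24), while LAMA3 and LAMB3 were lower (-1.79 ± 0.26 and -1.67 ± 0.25). Among the integrins ITGB8, which activates TGF-beta, had 1053 and 919.7 CPM in SNGM and 101 and 102 CPM in Ishikawa-S33Y, and the laminin receptor subunit ITGB4 62.8 and 75.4 against 502 and 493 CPM. COL1A2, the partner chain of COL1A1, was under 5 CPM in all 4 libraries and slightly higher in SNGM (2.91 and 4.13 against 1.72 and 0.88 CPM), a call lost without SNGM library 2 (0.79, adjusted p = 0.0605) or Ishikawa-S33Y library 2 (0.72, adjusted p = 0.0806), with a range from 0.00014 to 0.139 over all settings. Collagens, laminins and integrins thus each had members on both sides. Of 17 matrix metalloproteinases and inhibitors tested, 6 were higher and 8 lower. The collagenase MMP1 had 103 and 80.5 CPM in SNGM and 0.591 and 0.335 CPM in Ishikawa-S33Y (5.98 ± 0.20). In contrast, the gelatinase MMP2 had 0.0319 and 0 against 62.0 and 58.6 CPM, its membrane-bound activator MMP14 0.798 and 0.733 against 61.5 and 59.1 CPM and the stromelysin MMP10 0.128 and 0.0293 against 35.4 and 32.1 CPM.

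Genes of the Wnt pathway differed without a common direction, although both lines carry the CTNNB1-mutated label. Of 21 Wnt targets and feedback genes tested, 9 were higher and 8 lower in SNGM, with a median of 0.21. AXIN2, the most used reporter of beta-catenin activity, was at 31.7 and 28.8 CPM in SNGM and 23.7 and 21.7 CPM in Ishikawa-S33Y and was not called in the 32-library fit (0.40 ± 0.18, adjusted p = 0.054), though 9 of 19 alternative settings called it with the same sign (adjusted p from 0.0026 to 0.947 over all settings). Parental Ishikawa had 8.14 and 7.52 CPM and HEC265 144 and 145 CPM. LEF1, a nuclear partner of beta-catenin, was higher at 10.8 and 10.1 against 2.71 and 3.48 CPM, and so were the feedback ubiquitin ligases RNF43 (53.9 and 56.0 against 15.4 and 14.7 CPM) and ZNRF3 (121 and 129.6 against 43.6 and 41.5 CPM). The proliferation factor MYC was higher at 374 and 369 against 64.3 and 61.6 CPM (2.54 ± 0.13), and the receptor TNFRSF19 at 195 and 152 against 15.7 and 12.6 CPM. The growth factors FGF18 and BMP4 were lower, at 0.16 and 0.322 against 111 and 105 CPM and 0.255 and 0.205 against 27.1 and 25.7 CPM. The stem cell receptor LGR5 and the factor SP5, both under 3 CPM in Ishikawa-S33Y, were lower as well (-1.15 ± 0.25 and -1.51 ± 0.26). Targets of one pathway thus lay on both sides.

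Components upstream of these targets also had members on both sides. Of 18 genes of the destruction complex and nuclear complex, 4 were higher and 3 lower (38.9% called, beside 60.8% of all genes), and with the length score as a covariate 3 were higher and 7 lower. CTNNB1 itself was at 266 and 213 CPM and 214 and 207 CPM and was not called (0.18 ± 0.12). APC, the scaffold of the destruction complex, was at 60.9 and 63.3 against 113 and 109.8 CPM (-0.83 ± 0.30, adjusted p = 0.021), a call lost without SNGM library 1 or 2 (-0.81 and -0.86) or Ishikawa-S33Y library 1 or 2 (-0.81 and -0.85), with an adjusted p from 0.0629 to 0.0798 in these 4 fits and from 2.9e-09 to 0.0798 over all settings. The coactivator BCL9 (1.50 ± 0.33), the beta-catenin inhibitor CTNNBIP1 (1.48 ± 0.13), TCF7L2, a nuclear partner of beta-catenin (1.05 ± 0.18), and BTRC, which marks beta-catenin for degradation (0.65 ± 0.16), were higher. Of 20 genes listed as Wnt receptors and co-receptors, a list that also counts secreted antagonists, 10 were lower and 4 higher (70% called). The higher ones were LGR4, ROR1, FZD4 (1.34 ± 0.15) and FZD10 (1.66 ± 0.14). LGR4, which binds R-spondins, was at 286 and 230.2 against 79.8 and 74.0 CPM. The Wnt5a receptor ROR1 was at 111 and 100.2 against 14.3 and 14.7 CPM. Among the lower members were the secreted Wnt antagonists SFRP1 and SFRP2. They had 0.255 and 0.117 against 16.8 and 17.1 CPM and no read against 8.28 and 7.29 CPM.

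**Figure D3:**
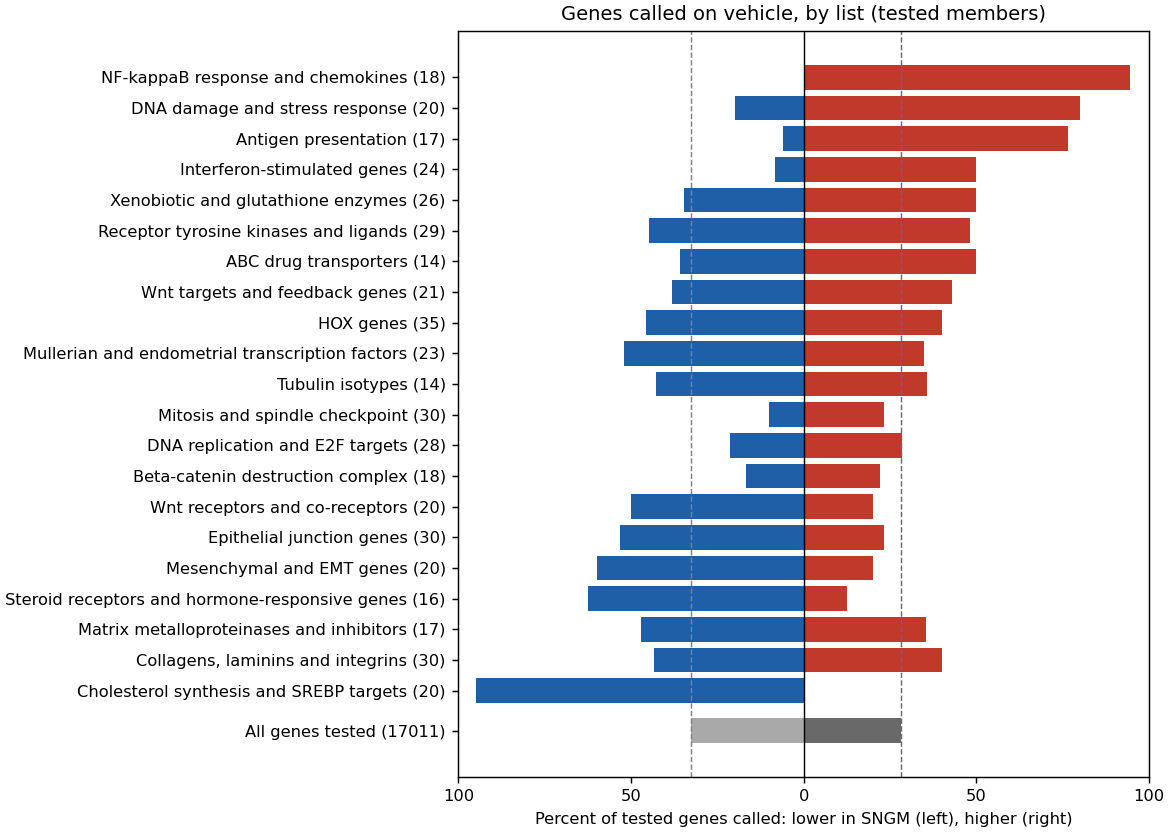
Percent of the tested members of 21 gene lists called higher (red, right) or lower (blue, left) in SNGM than in Ishikawa-S33Y on vehicle, with the number of tested members in brackets. The bottom bar and dashed lines give all 17011 genes, 28.1% higher and 32.7% lower; the NF-kappaB list lies almost wholly on the right, the cholesterol list almost wholly on the left, and the bars of the mitosis list end inside the dashed lines on either side.

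The NF-kappaB response was higher in SNGM in nearly every member. NF-kappaB dimers are held in the cytoplasm by inhibitors such as NFKBIA until a signal, for example from the TNF receptor, frees them to switch on cytokines, chemokines, survival genes and their own inhibitors. Of 18 tested members 17 were higher in SNGM and none lower, 15 of them at least 2-fold, with a median of 2.22. The counts were 17 higher and none lower without any 1 of the 4 vehicle libraries, and 14 higher with the length score as a covariate. TNF, the cytokine at the head of the pathway, had 88.2 and 84.4 CPM in SNGM and 0.197 and 0 CPM in Ishikawa-S33Y (6.32 ± 0.14, adjusted p = 1.6e-19). BIRC3, the ubiquitin ligase of the TNF receptor complex (chr11:102317484-102339403, GRCh38), had 455 and 429.9 against 3.55 and 3.82 CPM, 120.2-fold higher by the mean CPM. Parental Ishikawa was as low, with 0.123 and 0.23 CPM of TNF and 4.07 and 5.53 CPM of BIRC3, and HEC265, with 3.56 and 3.17 and 63.7 and 61.3 CPM, lay between.

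Chemokines and interleukins followed the same direction. CCL2, which attracts monocytes, had 32.6 and 27.6 CPM in SNGM and 0 and 0.21 CPM in Ishikawa-S33Y. CXCL8 had 28.7 and 24.2 against 0.493 and 0.671 CPM and CXCL2 11.1 and 11.6 against 0 and 0.0419 CPM, both neutrophil attractants. IL6 had 23.2 and 22.0 against 0.542 and 0.587 CPM, 40.0-fold higher by the mean CPM, and LIF, a cytokine of the same family, 48.8 and 55.2 against 1.38 and 1.59 CPM. Each of these secreted factors was close to 0 in Ishikawa-S33Y. The feedback inhibitors NFKBIA and TNFAIP3 were higher too, at 181 and 156 against 35.5 and 35.6 CPM and 47.8 and 50.8 against 8.38 and 10.2 CPM. The subunits RELB and NFKB2 were at 19.2 and 19.4 against 4.93 and 3.73 CPM and 43.4 and 45.3 against 21.4 and 20.2 CPM. The exception was the chemokine CXCL3, at 0.511 and 0.264 and 0.887 and 0.587 CPM, which was not called and is at a low level in both lines. The 7 immune cell markers summed to 18.6 to 21.7 CPM in SNGM and 5.24 to 5.42 CPM in Ishikawa-S33Y, of which CD68, a lysosomal protein also made outside the immune system, was 16.3 and 19.3 and 3.30 and 3.65 CPM, and CD3E, CD3D, MS4A1, CD14 and LYZ were under 1 CPM.

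Promoter sequence of 4 members of the NF-kappaB list is shown because the list was higher nearly throughout. The 250 bases before the start of each gene in RefSeq (GRCh38.p14) follow in lower case, 5′ to 3′ on the strand of the gene, for BIRC3 (chr11:102317234-102317483, plus strand), CXCL2 (chr4:74099196-74099445, minus strand), IL6 (chr7:22726950-22727199, plus strand) and TNF (chr6:31575315-31575564, plus strand).
BIRC3: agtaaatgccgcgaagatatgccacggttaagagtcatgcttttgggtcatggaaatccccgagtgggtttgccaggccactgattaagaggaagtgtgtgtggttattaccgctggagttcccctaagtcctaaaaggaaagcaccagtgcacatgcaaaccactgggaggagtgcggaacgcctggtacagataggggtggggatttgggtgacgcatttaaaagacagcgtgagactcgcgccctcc
CXCL2: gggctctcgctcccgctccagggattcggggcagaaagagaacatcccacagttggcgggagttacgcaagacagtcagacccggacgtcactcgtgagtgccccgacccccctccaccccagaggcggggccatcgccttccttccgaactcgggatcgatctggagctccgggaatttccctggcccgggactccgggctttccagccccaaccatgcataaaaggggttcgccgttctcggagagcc
IL6: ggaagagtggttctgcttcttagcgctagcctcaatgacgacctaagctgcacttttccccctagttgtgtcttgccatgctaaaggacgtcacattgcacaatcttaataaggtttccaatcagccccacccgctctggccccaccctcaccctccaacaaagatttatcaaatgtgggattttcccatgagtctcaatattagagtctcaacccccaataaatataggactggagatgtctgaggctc
TNF: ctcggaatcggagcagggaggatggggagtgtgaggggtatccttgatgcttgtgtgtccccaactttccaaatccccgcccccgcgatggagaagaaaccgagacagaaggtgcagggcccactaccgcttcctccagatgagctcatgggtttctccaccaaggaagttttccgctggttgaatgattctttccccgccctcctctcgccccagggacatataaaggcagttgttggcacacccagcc
Of these bases 52.4% were G or C in BIRC3, 64.4% in CXCL2, 47.6% in IL6 and 57.2% in TNF, with a median of 58.0% over the 35116 promoters of the table. No binding of a factor to them was measured.

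Interferon-stimulated genes were higher in part. Of 24 tested, 12 were higher, 2 lower and 10 not called (58.3% called, beside 60.8% of all genes), with a median of 0.52. The antiviral enzyme OAS3 had 58.7 and 62.7 CPM in SNGM and 0.69 and 0.964 CPM in Ishikawa-S33Y (5.08 ± 0.14), the RNA sensor IFIH1 13.2 and 13.5 against 0.148 and 0.0838 CPM and the surface protein BST2, which tethers budding virus, 41.8 and 32.7 against 1.53 and 1.17 CPM. Those not called included IFIT1 (12.5 and 13.1 and 11.5 and 13.0 CPM), IFIT2, ISG15 and IFI44L, and OASL was lower (-2.79 ± 0.19). JAK1, a kinase of interferon receptors that was picked after its values were seen, had 578 and 559 CPM in SNGM against 5.22 and 5.45 CPM in Ishikawa-S33Y (6.49 ± 0.15), 7.34 and 9.60 CPM in Ishikawa and 7.83 and 7.03 CPM in HEC265. SNGM thus stood alone among the 4 lines in its JAK1 level.

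Antigen presentation genes were higher in 13 of 17 tested members and lower in 1, with a median of 1.22. CD74, the invariant chain of class II molecules, had 67.7 and 76.4 CPM in SNGM and 0.936 and 1.43 CPM in Ishikawa-S33Y (5.07 ± 0.21), while the class II chain HLA-DRA was under 1 CPM in all 4 libraries. TAP1, a subunit of the peptide transporter, had 90.5 and 68.7 against 3.65 and 3.82 CPM. The immunoproteasome subunits PSMB8 and PSMB9 had 16.0 and 12 against 0.197 and 0.0838 CPM and 17.1 and 15.4 against 0.493 and 0.335 CPM. Class I heavy chains were higher by smaller steps, HLA-B by 0.96 ± 0.17 and HLA-C by 1.13 ± 0.13, and reads among these related genes may have been shared. B2M, their light chain, was at 162 and 135 and 171 and 177 CPM and was not called.

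Genes induced by DNA damage and cell stress were also higher in most members: 16 of 20 were higher and 4 lower in SNGM, 12 and none at least 2-fold, with a median of 1.56. The counts of higher and lower members were the same without any 1 of the 4 vehicle libraries. CDKN1A, the p21 inhibitor of cyclin-dependent kinases (chr6:36676463-36687332, GRCh38), had 710.4 and 607 CPM in SNGM and 17.1 and 14.6 CPM in Ishikawa-S33Y, 41.5-fold higher by the mean CPM (5.29 ± 0.13, adjusted p = 4.2e-19). Ishikawa had 74.4 and 71.9 CPM and HEC265 429 and 404 CPM, so Ishikawa-S33Y was the lowest of the 4 lines. GDF15, a stress-induced secreted factor, had 234 and 218 against 7.89 and 6.46 CPM, the death receptor FAS 121 and 101 against 8.48 and 8.13 CPM and the kinase PLK3 16.6 and 18.1 against 2.86 and 2.22 CPM. The ubiquitin ligase MDM2 had 482 and 442 against 234 and 227 CPM. The 4 lower members, TIGAR, TP53I3, TP53INP1 and SPATA18, differed by less than 2-fold (-0.33 ± 0.09, -0.74 ± 0.14, -0.54 ± 0.13 and -0.57 ± 0.12). Several members, such as FAS, GDF15 and CDKN1A, answer to more than 1 pathway. With the length score as a covariate 14 of the 20 were higher and 4 lower.

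The G1 cyclin machinery differed in its members, with 5 of 17 tested higher and 10 lower in SNGM, the same counts under every alternative other than the filters, which change the genes tested. RB1, the retinoblastoma protein that holds back S phase, had 172 and 148 CPM in SNGM and 15.1 and 13.6 CPM in Ishikawa-S33Y (3.39 ± 0.16). CDK6, a cyclin D kinase, had 1273 and 1215 against 259.6 and 255 CPM, while CDK4 had 95.3 and 78.2 against 178 and 167 CPM. Cyclin D2, CCND2, had 0.862 and 1.20 against 78.7 and 82.4 CPM (-5.33 ± 0.21), and cyclin D1, CCND1, 662 and 667 against 1275 and 1211 CPM. MYCN, a paralog of MYC, had 0.224 and 0.0586 against 29.1 and 26.7 CPM, the reverse of MYC. The kinase inhibitors other than CDKN1A were lower, with differences of -1.73 for CDKN2A, -1.43 for CDKN2B, -1.55 for CDKN2C, -1.56 for CDKN1B and -1.67 for CDKN1C. Of 15 BCL2 family genes 6 were higher and 3 lower (60% called, beside 60.8% of all genes). The higher ones included the promoters of cell death BBC3 (1.82 ± 0.20) and PMAIP1 (2.0 ± 0.19), and the lower ones BCL2 (-1.54 ± 0.13).

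**Figure D4:**
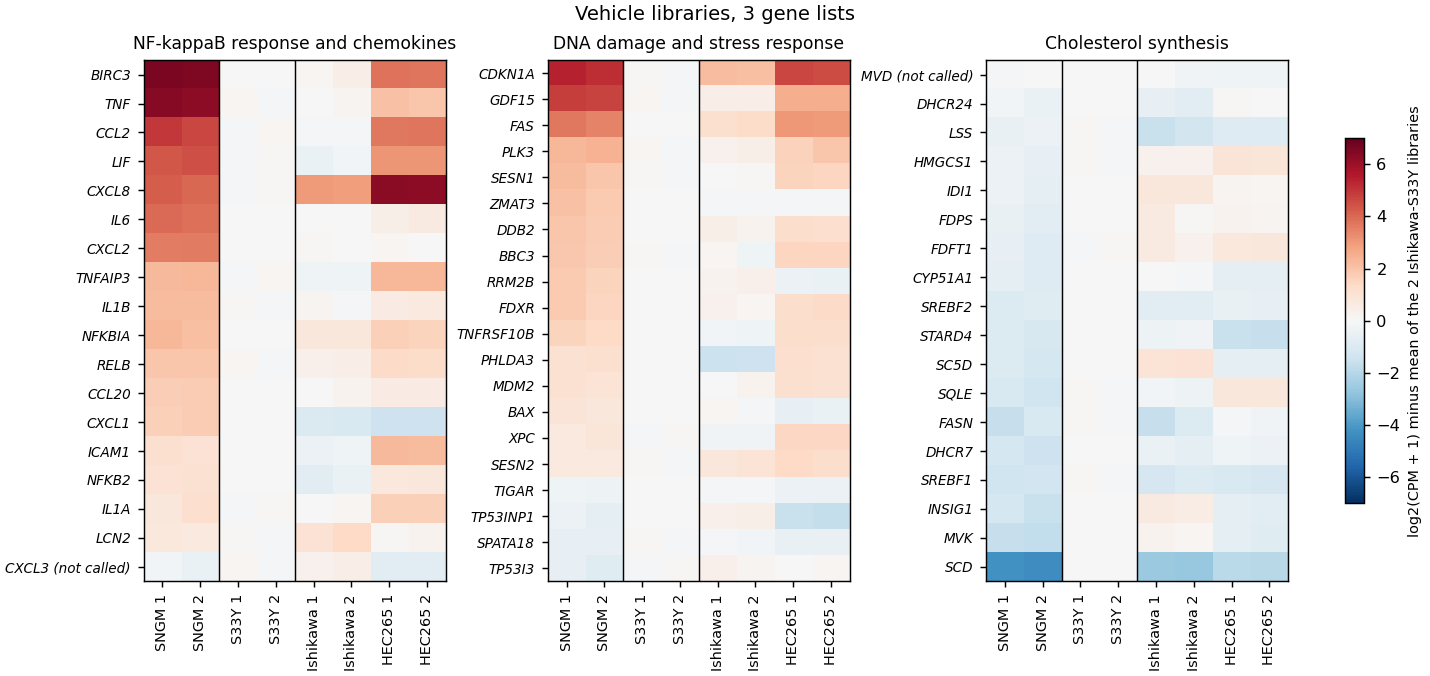
Heat maps of the tested members of the NF-kappaB, damage response and cholesterol lists (18 of 20 drawn for the last) in the 8 vehicle libraries of SNGM, Ishikawa-S33Y (S33Y), Ishikawa and HEC265, coloured by log2(CPM + 1) minus the mean of the 2 Ishikawa-S33Y libraries, on a scale from -7 to 7. The 2 SNGM columns are red for 17 of 18 NF-kappaB genes and 16 of 20 damage response genes and blue for all but 1 of the cholesterol genes drawn, and HEC265 shares part of the red.

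Cholesterol and fatty acid synthesis was lower in SNGM in nearly every member. SREBP factors switch on these enzymes when sterols run low. Of 20 tested members 19 were lower in SNGM and none higher, 10 at least 2-fold, with a median of -0.98, and 17 to 19 were lower and none higher under every alternative other than the filters. SCD, which makes monounsaturated fatty acids, had 51.3 and 47.5 CPM in SNGM and 987 and 997 CPM in Ishikawa-S33Y, 20.1-fold lower by the mean CPM (-4.30 ± 0.15, adjusted p = 1.4e-16). Ishikawa had 161 and 155 CPM and HEC265 266 and 258 CPM, so Ishikawa-S33Y had the most SCD of the 4 lines. The mevalonate kinase MVK had 4.09 and 3.75 against 14.7 and 14.2 CPM, INSIG1, which retains SREBP in the endoplasmic reticulum, 33.3 and 26.3 against 79.4 and 81.1 CPM and SREBF1, which encodes SREBP1, 50.8 and 51.8 against 144 and 125 CPM. MVD was the member not called (-0.07 ± 0.12). Serum in the medium ranged over the lines and is not given per line, so its part cannot be told apart from the line.

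Detoxifying enzymes differed in 22 of 26 tested members, 13 higher and 9 lower. The aldo-keto reductase AKR1C1 had 50.5 and 45.6 CPM in SNGM and 1.63 and 1.17 CPM in Ishikawa-S33Y, the retinaldehyde dehydrogenase ALDH1A3 611 and 552 against 51.0 and 49.3 CPM and heme oxygenase, HMOX1, 71.4 and 65.8 against 6.11 and 6.54 CPM. NQO1, a quinone reductase, had 6.42 and 7.82 against 103 and 99.99 CPM and the glutathione transferase GSTM4 0.0958 and 0.176 against 20.9 and 21.7 CPM. HMOX1, AKR1C1 and NQO1 share the activator NRF2 as background, and they lay on different sides here. The AKR1C and GSTM genes are close relatives, so reads may have been shared among them. Of 21 hypoxia and glycolysis genes 8 were higher and 8 lower, with SLC2A3, the glycolytic switch enzyme PFKFB3 (419 and 389 against 60.6 and 59.8 CPM) and PDK1 (1.76 ± 0.14) higher and the carbonic anhydrase CA9 lower (-1.59 ± 0.13).

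Receptor tyrosine kinases and their ligands were called in 27 of 29 tested members, 14 higher and 13 lower. The EGF receptor, EGFR, had 530.4 and 579.9 CPM in SNGM and 149.5 and 144 CPM in Ishikawa-S33Y and the insulin-like growth factor receptor IGF1R 169.8 and 182 against 23.1 and 22.0 CPM. ERBB4, a receptor of the EGFR family, had 0 and 0.0879 against 53.2 and 52.0 CPM (-5.68 ± 0.14). The growth factor IGF2 and the binding proteins IGFBP2 and IGFBP3 were lower, IGFBP3 at 35.4 and 32.4 against 1044 and 1019 CPM. In the BMP and TGF-beta pathways the inhibitors of differentiation ID2, ID3 and ID4 were higher, at 336 and 299.9 against 10.2 and 10.1 CPM, 101 and 84.6 against 6.51 and 6.54 CPM and 181 and 157 against 9.12 and 9.81 CPM, while ID1 was not called. Parental Ishikawa had 98.2 and 105 CPM of ID2, 75.8 and 70.1 CPM of ID3 and 125 and 113 CPM of ID4, so here it lay nearer to SNGM and Ishikawa-S33Y was the lowest of the 4 lines. The ligand TGFB2 had 0.639 and 0.85 against 84.2 and 79.6 CPM and its receptor TGFBR2 98.9 and 89.9 against 473 and 452 CPM. NOTCH1 and NOTCH2 were higher (1.88 ± 0.39 and 1.91 ± 0.20) and NOTCH3 lower (-2.30 ± 0.28). Of 16 YAP targets, 6 were higher and 5 lower (68.8% called, beside 60.8% of all genes). Among them were CRIM1 (813 and 727 against 83.7 and 82.8 CPM) and the caveolar protein CAV2 (2.75 and 3.69 against 82.0 and 85.8 CPM).

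Lists tied to the 2 drugs of the study had members called on vehicle, and are read beside the 60.8% of all genes called. Paclitaxel binds the beta subunit of tubulin, and of 14 tubulin isotypes tested 5 were higher and 6 lower in SNGM (78.6% called). TUBB3, the beta III isotype, had 328 and 290.1 CPM in SNGM and 55.5 and 52.4 CPM in Ishikawa-S33Y (2.49 ± 0.11), and TUBB2B had 2.14 and 1.85 against 21.2 and 24.7 CPM. Of 20 microtubule-binding genes 6 were higher and 4 lower (50% called), the latter led by MAP1B at 2.62 and 2.93 against 128 and 123 CPM. ABCB1, the P-glycoprotein pump that exports paclitaxel, had 2.27 and 1.26 CPM in SNGM and 20.6 and 21.8 CPM in Ishikawa-S33Y (-3.03 ± 0.33), with 40.2 and 36.9 CPM in Ishikawa. MVP, the major vault protein, had 132 and 128 against 3.25 and 2.52 CPM, and the exporter ABCC4 429.9 and 369.9 against 65.1 and 63.1 CPM. Of 14 genes listed as ABC drug transporters 7 were higher and 5 lower (85.7% called). That list also counts the vault protein MVP, its largest higher member. Transporters thus lay on both sides, and MVP overlaps PAGR1, whose reads cannot be told apart here. The labels give paclitaxel at 11.7 nM for SNGM and 6 nM for Ishikawa-S33Y, each line at its own IC50, and no link between these genes and the doses was tested.

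SM08502 was used in the study as an inhibitor of CDC-like kinases (CLK), which phosphorylate SR splicing proteins. CLK1 was slightly higher in SNGM, at 25.6 and 26.5 against 17.6 and 18.6 CPM (0.50 ± 0.14, adjusted p = 0.0039). Of 15 CLK, DYRK and SRPK kinases and relatives 7 were higher and 3 lower (66.7% called, beside 60.8% of all genes). The largest gaps were those of DYRK1B, at 0.671 and 1.14 CPM in SNGM and 39.0 and 34.4 CPM in Ishikawa-S33Y, and HIPK2, at 997 and 1561 against 139.9 and 125 CPM. SRPK1, the other main SR protein kinase, had 215 and 201 against 77.1 and 77.4 CPM. Of 14 SR proteins 6 were higher and 5 lower (78.6% called), and SRSF12 alone passed 2-fold (1.11 ± 0.14). Among other splicing regulators MBNL3 was lower, at 0.798 and 1.26 against 46.9 and 42.9 CPM, and RBFOX3 higher, at 6.35 and 9.67 against 0.789 and 0.461 CPM.

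On vehicle 7 of 30 genes of mitosis and the spindle checkpoint were higher in SNGM and 3 lower, with a median of 0.18. This is 10 of 30 called, beside 60.8% of all genes. Of 28 replication genes 8 were higher and 6 lower (50% called). CCNB1, the cyclin of entry into mitosis, was at 295 and 233 CPM in SNGM and 262 and 266 CPM in Ishikawa-S33Y (-0.01 ± 0.15, adjusted p = 0.953). PTTG1, the securin that guards separation of chromatids, was higher at 163 and 141 against 80.2 and 81.9 CPM, and CCNA2 at 162 and 131 against 92.4 and 89.9 CPM. FOXM1, a factor that drives mitotic genes, was lower at 73.3 and 99.2 against 260.3 and 261 CPM (-1.60 ± 0.26), and CCNB2 at 34.4 and 30.6 against 84.8 and 83.8 CPM (-1.35 ± 0.14). Without SNGM library 1 a single member was higher and 2 were lower, and with the length score as a covariate 7 were higher and 9 lower, so the vehicle calls of this list depend on the library and the model. CCNA2 is one of them: its difference of 0.67 was not called without SNGM library 1 (0.52, adjusted p = 0.155), Ishikawa-S33Y library 1 (0.69, adjusted p = 0.0665) or Ishikawa-S33Y library 2 (0.65, adjusted p = 0.0831), and its adjusted p ranged from 0.00021 to 0.155 over all settings.

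Under SM08502 the pair shows the values for which it was picked, given here as a description with no test. The drug was given at 350.7 nM to SNGM and 85 nM to Ishikawa-S33Y, and over all genes the difference of the response was called for 9.83%, from which nothing is read about the mitotic list. The difference of the response, SNGM minus Ishikawa-S33Y, was below 0 in all 30 mitotic genes, with a median of -1.02. The median over all genes was -0.10, and the choice of the pair favours a negative sign in the mitotic list. CCNB1 had a response of -1.03 ± 0.15 in SNGM and 0.53 ± 0.15 in Ishikawa-S33Y, a difference of -1.56. KIF20A, a kinesin of the last steps of division, had responses of -0.98 ± 0.16 and 0.71 ± 0.16, a difference of -1.69, and CDC20, which activates the anaphase-promoting complex, -0.67 ± 0.11 and 0.86 ± 0.11, a difference of -1.53. CDKN1A, already high in SNGM on vehicle, had responses of 0.88 ± 0.13 in SNGM and 0.13 ± 0.13 in Ishikawa-S33Y. The difference was 0.75, a value that was smaller without some single libraries, and no call is made from it. The doses differ between the lines, and the vehicle libraries enter both the vehicle difference and the responses.

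**Figure D5:**
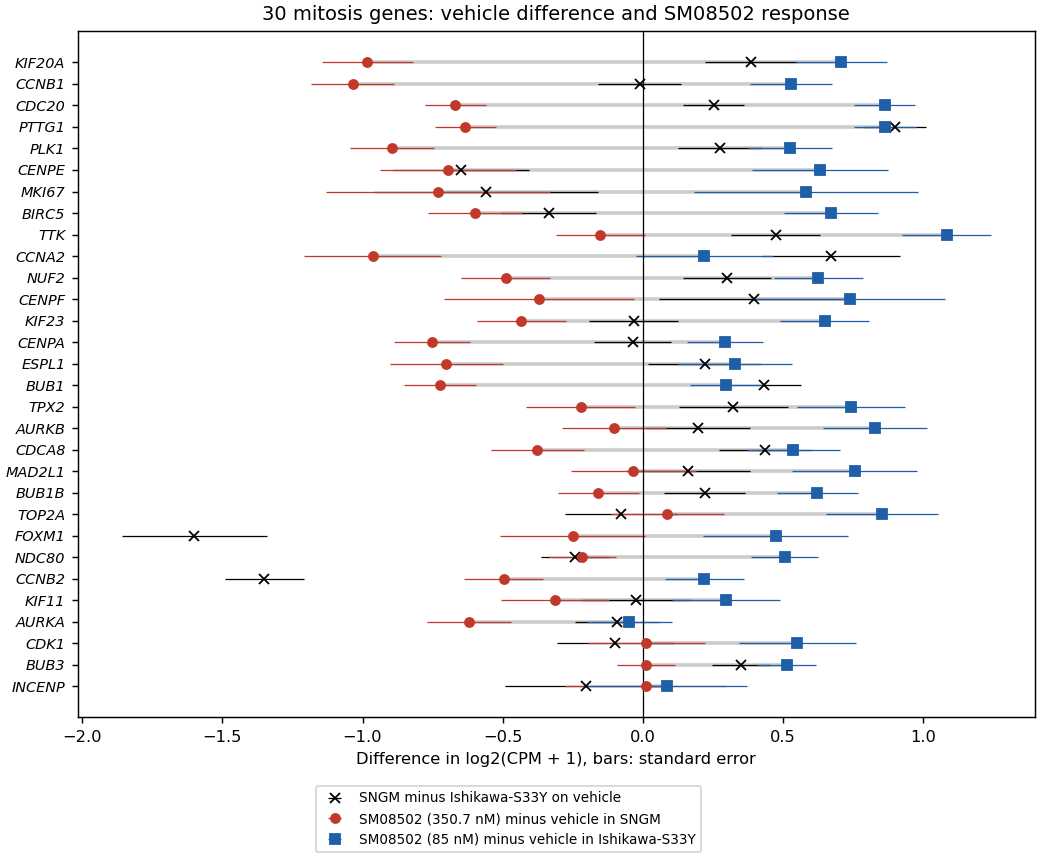
Differences in log2(CPM + 1) of 30 mitosis and spindle checkpoint genes with standard errors: SNGM minus Ishikawa-S33Y on vehicle (crosses), and SM08502 minus vehicle in SNGM at 350.7 nM (red circles) and in Ishikawa-S33Y at 85 nM (blue squares), each from 2 libraries a group. FOXM1 and CCNB2 have the crosses farthest to the left, while the circle lies to the left of the square in every gene, the response by which this pair of lines was picked.

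The difference between the lines was also seen in the drug-treated libraries, whose levels do not enter the vehicle difference. All arms share the spread estimated from the 32 libraries, so their calls are not independent of each other. Of the 4997 genes called at least 2-fold on vehicle, 4415 (88.4%) were called at least 2-fold in the same direction on paclitaxel, where 4718 genes (27.7%) passed, 93.6% of them shared. On SM08502 3864 (77.3%) were called so, of 5004 genes (29.4%) that passed, 77.2% shared. On the combination 3730 (74.6%) were called so, of 5686 genes (33.4%), 65.6% shared. In all 3 arms the number was 3372 (67.5%), and each of the 24 largest genes was among them. No gene was called at least 2-fold in the opposite direction on paclitaxel or SM08502, and 5 were on the combination, MUC16, MAPK8IP2, LINC01057, AC002398.9 and RP11-432B6.3, picked after their values were seen. MUC16, which encodes the CA125 antigen, had 7.38 and 13.2 CPM in SNGM and 4.68 and 3.61 CPM in Ishikawa-S33Y on vehicle, with a difference of 1.09 on vehicle, 0.94 on paclitaxel, -0.94 on SM08502 and -1.11 on the combination. Its vehicle difference was not called without SNGM library 2 (0.71, adjusted p = 0.101, with a range from 8.9e-06 to 0.275 over all settings). Of the combination libraries, the second of SNGM held 1607038 reads and the second of Ishikawa-S33Y 2991041.

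Mitochondrial, ribosomal and very long transcripts enter the composition measures given above. The 13 mitochondrially encoded transcripts were lower in 7 members and higher in none (53.8% called, beside 60.8% of all genes), with a median of -1.32. That median was only -0.73 without SNGM library 1, the library with the lower mitochondrial share. MT-ND4 had 3726 and 9729 CPM in SNGM and 19608 and 20254 CPM in Ishikawa-S33Y, so the SNGM libraries differed from each other by more than 2-fold. Its difference of -1.73 was -1.03 without SNGM library 1 (adjusted p = 0.154, with a range from 0.00057 to 0.154 over all settings). Of 28 very long transcripts 18 were higher and 1 lower, with a median of 0.88. Within this list FAT1, an atypical cadherin, had 3267 and 2960.1 against 402 and 396 CPM, and the endocytic receptor LRP2, lower despite its length, 0.319 and 0.703 against 71.5 and 67.2 CPM. Of 35 ribosomal protein genes 10 were lower and 1, RPS27L, higher (2.50 ± 0.26), with 31.4% called beside 60.8% of all genes. With the length score as a covariate 4 were lower and 17 higher. The score is computed from these same ribosomal protein genes and the very long transcripts, and it differs between the lines. That shift is thus built in, and nothing is read from it about their direction. With that covariate 7 of the 28 replication genes were higher and 9 lower, and 6 and 9 of the 20 microtubule-binding genes. The counts were 5 and 7 of the 16 YAP targets and 6 and 6 of the 15 BCL2 family genes. They were 6 and 6 of the 15 CLK, DYRK and SRPK kinases and 6 and 6 of the 14 genes of the ABC transporter list. For the 28 very long transcripts, which are part of the score, they were 15 and 8, a shift built in likewise. What part library composition has in these groups was not tested.

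Cancer-testis antigens, silent in most normal tissues outside the germ line, were called in 43.8% of the 16 tested, beside 60.8% of all genes. Of these antigens 6 were lower in SNGM, 1 was higher and 9 were not called, with a median of -0.05 and with MAGEA3 and MAGEA6, near-identical copies, at no read against 52.7 and 49.3 CPM and 43.8 and 39.9 CPM. Among 10 imprinted genes tested 6 were lower and 1 higher, with MEST at 0.447 and 0.996 against 78.6 and 81.5 CPM, PLAGL1 at 0 and 0.0586 against 16.6 and 16.3 CPM and DIRAS3 at 0.0319 and 0.147 against 22.4 and 21.5 CPM. Parental Ishikawa had 74.9 and 76.2 CPM of MAGEA3, 138 and 145 CPM of MEST and 14.4 and 13.7 CPM of DIRAS3, so both Ishikawa lines expressed them. Of 2931 genes at least 2-fold lower in SNGM 232 had no read in either SNGM library, and of 2066 higher genes 29 had no read in either Ishikawa-S33Y library. Among regulators of DNA methylation, the demethylase TET1 had 5.46 and 7.27 against 85.7 and 83.2 CPM and the methyltransferase DNMT3B 34.3 and 41.3 against 8.87 and 7.88 CPM. The mismatch repair gene MSH3 was lower (-1.57 ± 0.12).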

How the data were processed

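RNA-seq libraries from total RNA depleted of ribosomal RNA were prepared with the KAPA mRNA HyperPrep kit, per the labels' protocols. The deposited table holds log10(CPM + 1) values of 35238 genes in 32 libraries, made by the authors. The submitters' processing notes name bcl2fastq, kallisto, STAR and GRCh38. The counting program, annotation and use of strand are not given in the sources used here. The log10 values were turned back into CPM. Every value was a whole multiple of 1 read within 0.01 reads, which gave the read totals used as depth, and limma voom on these reads called 11497 genes. Genes above 1 CPM in at least 2 libraries were kept (17011).

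Differences were tested with limma 3.58.1 in R 4.3.3, on log2(CPM + 1) with a pseudocount of 1, 1 mean for each of the 16 groups, moderated variances with an intensity trend, and 2-sided p-values adjusted by Benjamini-Hochberg over all genes tested. Fold differences use mean CPM. Against 0 reads they are lower bounds with 3 reads per library as the floor. No fold is given where a line had 1 or 2 reads in all. Counting error is all that this floor covers. On simulated counts for 17090 genes the test called 41.8% of genes changed 1.5-fold, 94.0% of those changed 2-fold, all of those changed 4-fold and 0% of the others. The simulation gave every gene and library the same dispersion, with no effect of library composition, and changed only genes of at least 2 in log2(CPM + 1). Real replicates differed by a root mean square of 0.085 to 0.576 log2 units across the groups. The simulated shares may therefore not hold for the real libraries.

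The genes named are the 12 coding genes with the largest called differences in each direction, the 4 largest called members of each list with a few members that define it, and for the SM08502 response the 3 largest mitotic genes, CCNB1 and CDKN1A. Other list members were chosen after their values were seen, and some genes that enter the counts are not reported here. The lines compared, picked for opposite mitotic responses to SM08502, and the lists were chosen with earlier results of these data known. Tests use no pairing of libraries, since the shared numbers are those of duplicate platings and the correlations of replicate differences between the lines were -0.10, -0.03, 0.05 and 0.14 in the 4 treatment arms. The length score subtracts the mean log2 level of 35 ribosomal protein genes from the mean over 28 very long transcripts. Names, coordinates and promoters came from RefSeq (GRCh38.p14), in which 16183 of the tested symbols were found. The alternatives were filters, pseudocount, scaling, the samples in the fit, the intensity trend, a block, limma voom and leaving out each library, and, chosen after seeing the data, 2 shallow libraries left out, a crossed block and the length score as a covariate.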

Additional observations from a re-analysis of the deposited data

Results flagged for a closer look

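The response to SM08502 is set out here for 4 genes named in the report. The difference, SM08502 minus vehicle in SNGM less the same in Ishikawa-S33Y, was -1.69 for KIF20A, -1.56 for CCNB1 and -1.53 for CDC20, all lower in SNGM, and 0.75 for CDKN1A, higher in SNGM. For CDKN1A the difference was smaller without some single libraries, at 0.63 without SNGM vehicle library 2 and 0.64 without Ishikawa-S33Y vehicle library 1. It was 0.67 without Ishikawa-S33Y SM08502 library 2. The lines were picked for opposite mitotic responses in this contrast, so these values repeat that choice and are a description with no test. The lines received 350.7 nM and 85 nM of SM08502, so the doses cannot be told apart from the lines.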

How the results depend on the processing

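Over 19 alternatives the vehicle comparison called 7727 to 12023 genes, and 8861 to 9073 without 1 library. Genes called at least 2-fold numbered 3366 to 6542, and 4996 to 5046 without 1 library. The counts on paclitaxel, SM08502 and the combination were 7472 to 10932, 7777 to 11221 and 8214 to 11900 over 13 alternatives. The share of higher genes among those called on vehicle ranged from 40.4% with the length score as a covariate to 53.5% after quantile normalization. The response difference was called for 700 to 1033 genes without 1 library, for 3157 without the 2 shallow combination libraries and for 3215 with the length score, against 1673 genes, and fewer samples enter the fits without 1 library. For the other settings the cause was not tested. Of 212 named genes 207 were called on vehicle, and 198 of these kept the call under all 19 alternatives, all 24 largest among them. The 9 others were APC, CCNA2, CDH1, COL1A2, MT-ND4, MT-ND4L, MT-ND5, MT-ND6 and MUC16, and none of the 207 reversed. Of 5 not called, 4 (AXIN2, CTNNB1 and PAX8 among them) were called under some settings, and CCNB1 (-0.01) turned sign with median re-centring (0.10), without SNGM replicate 2 (0.16, with -0.18 to 0.16 over the fits without 1 library) and with the length score (0.27). List medians with members at 0 reads set to their bound were the same to 2 decimals for 12 of 14 such lists, the exceptions being the steroid list (-1.78 instead of -1.39) and the metalloproteinase list (-0.96 instead of -0.67). The library depth, 20290762 to 34127623 reads on vehicle, puts 3 reads at 0.0879 to 0.148 CPM.

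With the replicate number as a block the vehicle comparison called 10384 genes, 4998 at least 2-fold, and the response difference was called for 1730. The numbers are not used as pairs, since they are those of duplicate platings. With the SNGM numbers crossed the counts were 10326, 5000 and 1658.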

Other observations

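Replication-dependent histone genes were lower in 12 of 27 tested members and higher in 2, 51.9% called beside 60.8% of all genes. HIST1H3H, a histone H3 gene, had 123 and 89.5 CPM in SNGM and 3.20 and 4.40 CPM in Ishikawa-S33Y, and HIST2H3D, another, had 31.8 and 26.4 against 163 and 152 CPM. The genes of this family resemble each other closely, so reads may have been shared, and with the length score as a covariate 8 were higher and 7 lower. Parental Ishikawa had more of both, with 31.8 and 37.3 CPM of HIST1H3H and 252 and 255 CPM of HIST2H3D.

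The 3 markers of ciliated cells were lower in SNGM. FOXJ1, the factor that drives motile cilia, had 21.1 and 21.1 CPM in SNGM, 139 and 125 CPM in Ishikawa-S33Y and 28.9 and 33.9 CPM in Ishikawa, and PIFO, a protein of the ciliary base, had no read in SNGM and 11.4 and 9.47 CPM in Ishikawa-S33Y. Of the neuroendocrine markers CHGA, which encodes chromogranin A, had 0.128 and 0.117 against 9.46 and 9.39 CPM and SYP, synaptophysin, 0.798 and 1.05 against 4.78 and 5.16 CPM, while INSM1 had no read in either line. Of 7 caveolar genes 5 were lower and none higher, with the coat protein gene CAV1 at 86.9 and 74.6 against 142 and 142 CPM. Of 13 nonsense-mediated decay factors 7 were lower and 2 higher, the latter being the kinase SMG1 (1.38 ± 0.12), which has near-identical copies in the genome, and UPF3A (1.08 ± 0.17). Of 8 mucins 5 were lower and 1, MUC16, was higher. Among 23 driver genes of endometrial cancer 6 were higher and 8 lower, 60.9% called beside 60.8% of all genes. The called members included SPOP, a ubiquitin ligase adaptor (28.9 and 27.0 against 76.8 and 77.8 CPM), AKT1 (126 and 135 against 295 and 291 CPM) and FGFR2 (72.0 and 66.6 against 30.9 and 29.1 CPM). With the length score as a covariate 4 were higher and 15 lower.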
